A study of Mus musculus with 6 samples.

Results

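The genes described here are components and targets of bone morphogenetic protein (BMP) signalling in mouse embryonic stem cells: the ligand Bmp4, the receptors Bmpr1a and Bmpr2, the signal transducers Smad1 and Smad5, the inhibitory Smads Smad6 and Smad7, and the target genes Id1, Id2 and Id3. They were chosen by name, as rows of the deposited expression table whose gene symbol equals one of these 10. Of the 10, 9 have a row among the 18312 gene rows, and Smad7 was not analysed here. Every share of all gene rows below is a share of those rows. The study set out to find mRNAs bound by Brf1 (gene Zfp36l1) and Brf2 (gene Zfp36l2), RNA-binding proteins that attach to AU-rich elements and promote mRNA decay.

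All libraries were made from E14 mESCs, a mouse embryonic stem cell line of wild-type (wt) genotype and 129/Ola background, cultured with 15% FBS and LIF at 1000 U/ml. The 6 libraries in the labels were 2 of total RNA, with no antibody, 2 of RNA from complexes precipitated with an anti-Brf1/2 antibody, and 2 controls precipitated with rabbit IgG. E14 is a single established line, and the precipitations were made from cytoplasmic extract. The table analysed here holds 1 value per gene, and no column names a library or a group. Enrichment by the antibody over IgG, which the design implies, was therefore not computed, and no spread between libraries can be given. A level below is a level in this profile, which may be total or precipitated RNA, and is not a measure of binding.

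BMP ligands are secreted dimers that bring together type I and type II serine/threonine kinase receptors. The type I receptor phosphorylates Smad1, Smad5 or Smad9, which enter the nucleus with Smad4 and activate target genes, among them the Id genes. Id proteins are helix-loop-helix proteins without a DNA-binding region, and they capture E proteins, the partners of many differentiation factors. In cultured mouse embryonic stem cells, BMP acting through Id genes is known to support self-renewal together with LIF.

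Because Brf1 and Brf2 recognise AU-rich sequence, the 3′ untranslated regions of these transcripts were searched on the mRNA strand for the heptamer TATTTAT. The 10 sites found, in 5 of the 9 genes, are printed below as 29-base windows from the longest annotated region (GENCODE M21, GRCm38), 5′ to 3′ on the mRNA strand, with the heptamer in capitals. They are shown because the study's question concerns AU-rich sequence, and they are not the only AU-rich matches in these transcripts. The shorter pentamer ATTTA was in the longest region of 7 of the 9 genes, against 67.8% of all genes with an annotated region. Bmpr1a held 8 copies and Smad1 5, though neither holds the heptamer. A match is a description of the letters and not a measured binding site.
Bmp4 site 1: caccttgacctTATTTATgactttacgtg
Bmp4 site 2: tttgacaaataTATTTATaactacatatt
Bmpr2 site 1: attacattttcTATTTATaataacttcag
Bmpr2 site 2: ttaaaaaatttTATTTATttaatgtatga
Bmpr2 site 3: tttaattacttTATTTATatttaaagcac
Bmpr2 site 4: ctggtaacataTATTTATttaagcaatgt
Smad5 site 1: ttctgtgccatTATTTATtgcctttcaga
Smad6 site 1: tacaacgtaatTATTTATatatggtgcaa
Id2 site 1: tgtgataccgtTATTTATgagagactttc
Id2 site 2: tgctgtgtataTATTTATatataaatata

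In GRCm38, the Bmp4 windows lie at chr14:46383615-46383643 and chr14:46383557-46383585 on the minus strand, with heptamers starting 227 and 285 bases past the stop codon in a region of 339 bases. The Id2 windows lie at chr12:25094355-25094383 and chr12:25094106-25094134 on the minus strand, 212 and 461 bases past the stop codon in a region of 785 bases. The Smad6 window lies at chr9:63953320-63953348 on the minus strand, 187 bases past the stop codon in a region of 448 bases. These 3 genes thus carry their heptamers in short regions. The Smad5 window lies at chr13:56739085-56739113 on the plus strand, 1618 bases past the stop codon in a region of 4899 bases. The Bmpr2 windows lie on the plus strand at chr1:59871466-59871494, chr1:59874125-59874153, chr1:59875215-59875243 and chr1:59876907-59876935, and their heptamers start 992, 3651, 4741 and 6433 bases past the stop codon in a region of 8529 bases. The Smad5 site and the second Bmpr2 site are also matches to the longer nonamer TTATTTATT, which contains the heptamer.

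**Figure D1:**
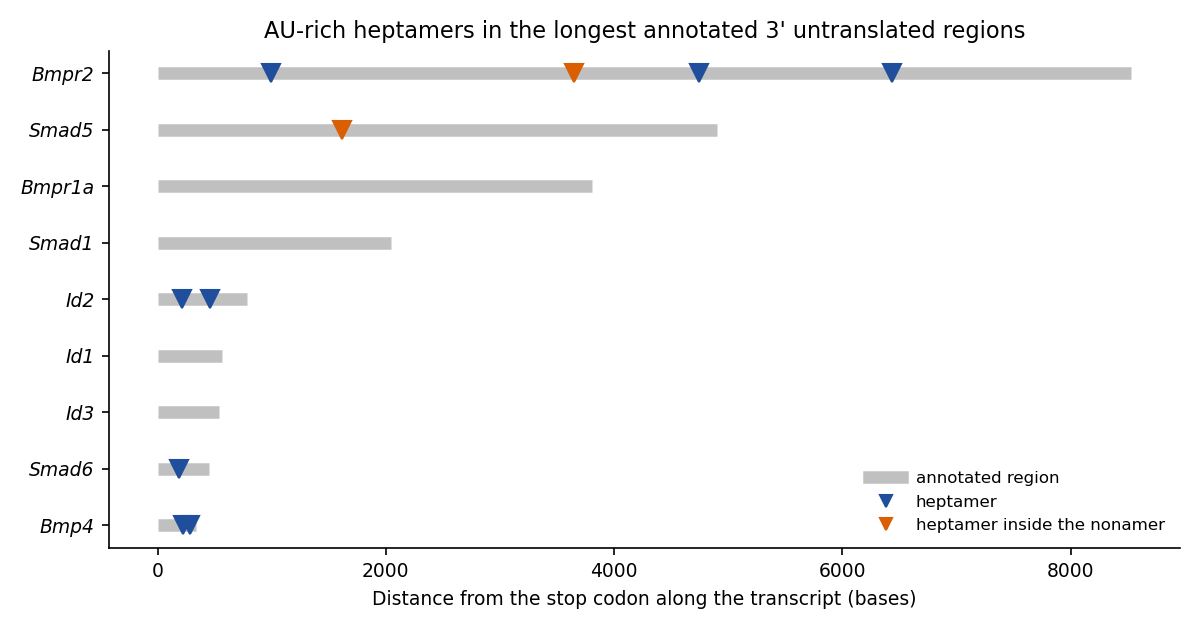
Positions of TATTTAT heptamers (triangles; orange where inside the nonamer TTATTTATT) along the longest annotated 3′ untranslated region (grey bars) of each gene, in bases from the stop codon. Bmp4, Bmpr2, Smad5, Smad6 and Id2 hold sites, and Bmpr1a, Smad1, Id1 and Id3 hold none.

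The heptamer was present in 5 of 9 genes, against 29.5% of the 16276 genes of the table with an annotated region. Region length matters to this count, so each gene was set beside the genes whose region was within 1.5-fold of its own in length. Among genes of like length to Bmp4, 9.38% held the heptamer. The shares were 12.4% for Smad6 and 21.1% for Id2, so in these 3 genes the heptamer is uncommon for the length. For Smad5 and Bmpr2 the shares were 64.9% and 81.0%, so most regions of that length hold it. Bmpr1a, whose region has 3810 bases, lacked the heptamer while 59.3% of genes of like length held it. Smad1 lacked it where 41.7% held it, and Id1 and Id3 lacked it where 15.8% and 15.2% did. The Id genes therefore split, with Id2 holding 2 heptamers and Id1 and Id3 none. Neither Id1 nor Id3 held the pentamer ATTTA, which 67.8% of all genes held. That share is not matched for length. The Id1 and Id3 regions have 563 and 536 bases, against a median of 1062 over all genes. The median AT content was 62.7% over the 9 regions and 56.3% over all genes. Of those with the heptamer, Bmp4 had 67.8%, Id2 66.5%, Bmpr2 64.7%, Smad6 64.1% and Smad5 57.3%. Of those without, Bmpr1a had 62.7%, Smad1 54.5%, Id1 51.9% and Id3 48.3%. The shares among genes of like length were not matched for AT content.

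For Bmpr2 the annotated region and the deposited value do not cover the same sequence. The transcript model in the table has 3507 bases, which is 390 more than the coding sequence of 3117 bases, while the annotated transcript has 12899. If the model holds the whole coding sequence, all 4 Bmpr2 heptamers lie outside it. For Smad5 (6585 bases), Smad6 (2971) and Id2 (1272) an annotated transcript within 2 bases of the model's length carries the heptamers.

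Across the 9 genes the level, given as FPKM (fragments per 1000 bases of effective length and scaled to the total count of the rows analysed here), ran from 1.66 for Smad6 to 50.6 for Id1, a span of 30.4-fold. The effective length is the one assigned to each transcript model in the deposited table in place of its own length. In RNA from a whole culture, fewer cells with a transcript and less of it per cell cannot be told apart. All 9 had at least 1 FPKM, a level that 56.0% of all gene rows reached. At least 5 FPKM was reached by 6 of them and by 38.3% of all gene rows. The median of the 9 was 9.94 FPKM, against 1.94 over all gene rows, and 8 of the 9 lay above that overall median. Together they held 9997 of 22625281 counts, or 0.0442% (Wilson 95% interval 0.0433 to 0.0451). Intervals and bounds on every value here cover counting error only.

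**Figure D2:**
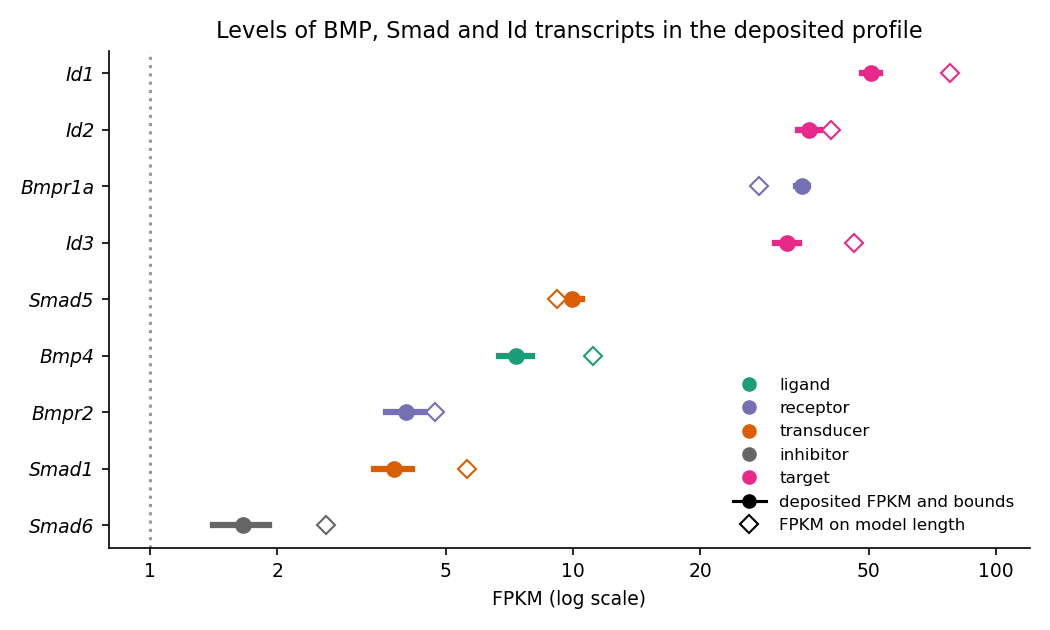
FPKM of the 9 genes on a log axis, coloured by role: filled circles and lines give the deposited value and its bounds, open diamonds the value on the model length, and the dotted line 1 FPKM. Id1 is highest and Smad6 lowest on both scales, and Bmpr1a is the only high gene that drops on the model length, from 34.8 to 27.6.

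The target genes Id1, Id2 and Id3 stood at the top. Id1 had 50.6 FPKM (deposited bounds 48.1 to 53.1, 1607 counts), Id2 36.1 (34.0 to 38.2, 1172 counts) and Id3 32.1 (30.0 to 34.1, 995 counts). Bmpr1a came between Id2 and Id3 on this scale, and below all 3 on the model length, at 27.6. Id1 was 1.40 times Id2 (exact 95% counting interval 1.30 to 1.51) and 1.58 times Id3 (1.46 to 1.71). On the model length these ratios were 1.91 (1.77 to 2.07) and 1.69 (1.56 to 1.83). Id2 and Id3 were close, at a ratio of 1.13 (1.03 to 1.23), and their order turned when FPKM was computed on the length of the transcript model, where Id3 had 46.1 and Id2 40.7. The fourth family member, Id4, was far lower at 1.75 FPKM (1.42 to 2.09), and Id3 exceeded it 18.3-fold (15.0 to 22.5).

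Of the E proteins that Id proteins capture, Tcf3 had 25.8 FPKM (24.9 to 26.8) and Tcf12 13.0 (12.3 to 13.8). Tcf4 was not analysed here. The summed level of Id1, Id2 and Id3 was 118.8 FPKM, above the 38.9 of both E proteins together, and on the model length the sums were 164.8 and 53.2. These are transcript levels and say nothing of protein amounts.

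The other BMP-responsive genes on the list mostly lay far below the Id genes. Dusp9, an Erk phosphatase induced by BMP in embryonic stem cells, was the exception at 32.7 FPKM (31.6 to 33.8), with bounds that overlap those of Id3. On the model length it was above Id3, at 60.5 against 46.1. Hey1, a Notch- and BMP-responsive repressor, had 1.97. With Id4, 3 of the 6 reached 1 FPKM, and their median was 1.21.

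Among the transducers, Smad5 had 9.94 FPKM (9.40 to 10.5, 1366 counts) and Smad1 3.77 (3.39 to 4.16, 387 counts). Smad5 was the higher by 2.63-fold (2.35 to 2.96), and by 1.63-fold (1.46 to 1.83) on the model length. The third BMP transducer, Smad9, had 0.298 FPKM (0.212 to 0.384, 48 counts), so Smad1 exceeded it 12.7-fold (9.36 to 17.5). The BMP branch was thus represented mainly by Smad5 and, at a lower level, Smad1. Smad3, which serves the Nodal and activin branch, had 3.64 FPKM, and its ratio to Smad1 was within counting error (Smad1 over Smad3 1.04, 0.909 to 1.18). The shared partner Smad4 and the Nodal transducer Smad2 were not analysed here.

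Smad6, an inhibitory Smad that competes with the transducers and is itself induced by BMP, was the lowest member at 1.66 FPKM (1.41 to 1.91, 175 counts). Smad1 exceeded it 2.27-fold (1.89 to 2.73). Smad5 exceeded it 5.98-fold (5.10 to 7.04), and 3.52-fold (3.01 to 4.15) on the model length. Other intracellular regulators of Smads were more abundant: all 7 measured reached 5 FPKM, and their median was 13.0. Skil, a Smad co-repressor, was highest of them at 68.8 FPKM, and the phosphatase Ppm1a, reported to act on Smads, had 39.1. Skil lay above Id1 on the effective length and below it on the model length, at 64.4 against 78.0. Nedd4l, also on that list, was not analysed here.

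The receptors were unequal. The type I receptor Bmpr1a had 34.8 FPKM (33.6 to 36.0, 3418 counts), the most counts of any member, and the type II receptor Bmpr2 had 4.02 (3.61 to 4.44, 375 counts). Bmpr1a was the higher by 8.65-fold (7.77 to 9.64), and by 5.83-fold (5.24 to 6.51) on the model length. The Bmpr2 value rests on the short model described above. Other type I receptors were lower than Bmpr1a, with Acvr1 at 1.92 and Bmpr1b at 0.967 (0.780 to 1.15). Bmpr1a was 36.0-fold above Bmpr1b (29.7 to 44.0). It was 18.1-fold above Acvr1 (15.7 to 20.9), and 9.84-fold (8.56 to 11.4) on the model length.

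The type II receptors that BMPs share with activins were at levels near that of Bmpr2. Acvr2a had 5.68 FPKM (5.24 to 6.11), above Bmpr2, and Acvr2b had 4.47 (4.07 to 4.87), whose bounds overlap those of Bmpr2. On the model length Acvr2b came to 13.0, since its effective length is 2.90 times its model length. The co-receptor Rgmb had 4.77. Of the 8 measured receptors and co-receptors outside the members, 5 had at least 1 FPKM, and Bambi was not analysed here.

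Bmp4 was the leading ligand at 7.33 FPKM (6.67 to 7.98, 502 counts). Of 13 other BMP-type ligands, Bmp8b alone had at least 1 FPKM, at 2.17 (1.87 to 2.48), and Bmp4 exceeded it 3.37-fold (2.86 to 3.99). Bmp7 had 0.661 FPKM and Bmp2 0.445, and Bmp4 exceeded them 11.1-fold (8.46 to 14.7) and 16.5-fold (11.1 to 25.5). On the model length Bmp7 came to 1.35. Bmp5, Bmp10, Bmp15, Gdf2 and Gdf5 had 0 counts, which allows up to 3 counts. Over all 7 pathway genes at 0, that limit corresponds to between 0.0271 and 0.0652 FPKM.

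Secreted antagonists, which bind BMPs outside the cell, were mostly near the detection limit. Of the 12 measured, follistatin (Fst), which binds activins and also BMPs, was the single one at 1 FPKM or more, with 13.8 (12.7 to 14.8), above Bmp4. Dand5 followed with 0.813 (0.474 to 1.15), and Noggin (Nog) had 0.579. Chrd had 0.750 FPKM and passed 1 on the model length, at 1.12. Twsg1 was not analysed here.

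**Figure D3:**
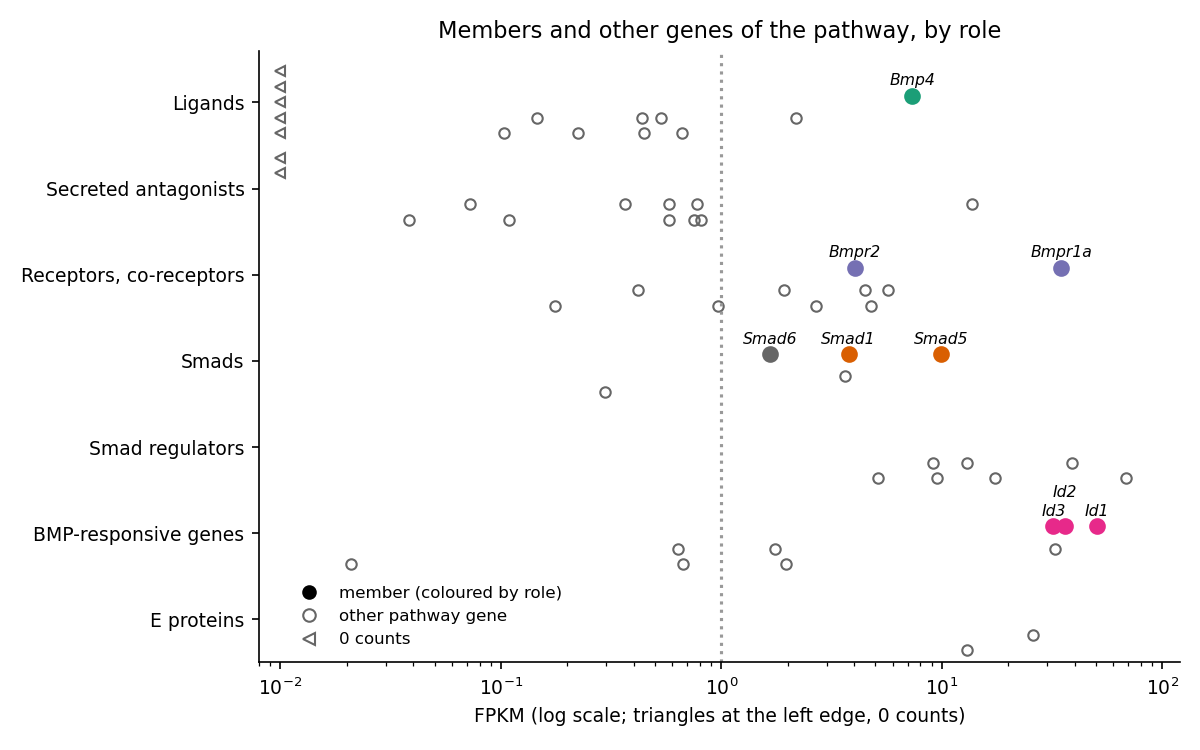
FPKM on a log axis of the 9 members (filled, named) and of 50 other measured pathway genes (open), by role; triangles mark genes with 0 counts and the dotted line marks 1 FPKM. Ligands and antagonists lie mostly under 1 FPKM with Bmp4 and Fst apart, and Smad regulators lie at 5 FPKM or more.

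Over the whole pathway outside the members, 20 of 50 measured genes reached 1 FPKM and the median was 0.664, both below the values over all gene rows. The heptamer TATTTAT was in the longest 3′ untranslated region of 24 of the 49 with an annotated region, or 49.0%. Over all genes of the table with an annotated region the share was 29.5%. This comparison was not matched for region length, so it does not show enrichment in the pathway. The most copies were 4 in each of Fst, Bmp2 and Bmpr1b. Bmp10 held 3, as did Smurf2, a ubiquitin ligase for Smads at 13.0 FPKM. These genes were singled out after the counts were seen. No test was made on these counts.

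The 9 genes with and without the heptamer overlapped in level. The 5 that hold it ran from 1.66 to 36.1 FPKM and the 4 that lack it from 3.77 to 50.6. The highest member, Id1, lacks it and the lowest, Smad6, holds it, while Id2 (2 sites) and Bmpr1a (none) had overlapping bounds on the effective length but not on the model length.

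In the order of deposited levels, Id1 was followed by Id2, Bmpr1a, Id3, Smad5, Bmp4, Bmpr2, Smad1 and Smad6. The neighbours Id2 and Bmpr1a, Bmpr1a and Id3, and Bmpr2 and Smad1 had overlapping bounds on this scale. Overlap of bounds is not a test of a ratio. The bounds of Id2 and Id3 also overlap, while the counting interval of their ratio was 1.03 to 1.23. On the model length the 3 Id genes all lay above Bmpr1a, with bounds that do not overlap its own. Bmpr2 and Smad1 were then the only neighbours with overlapping bounds. Among all genes, Id1 ranked 1239th and exceeded 93.2% of rows, Bmpr1a exceeded 90.0%, Smad5 72.4%, Bmp4 67.5% and Smad6 48.6%. The members thus fall into a high group of Id1, Id2, Bmpr1a and Id3, all above 89.1% of rows, and 5 genes spread over the middle of the table. With a single value per gene, no gene can be named as following a member across samples.

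**Figure D4:**
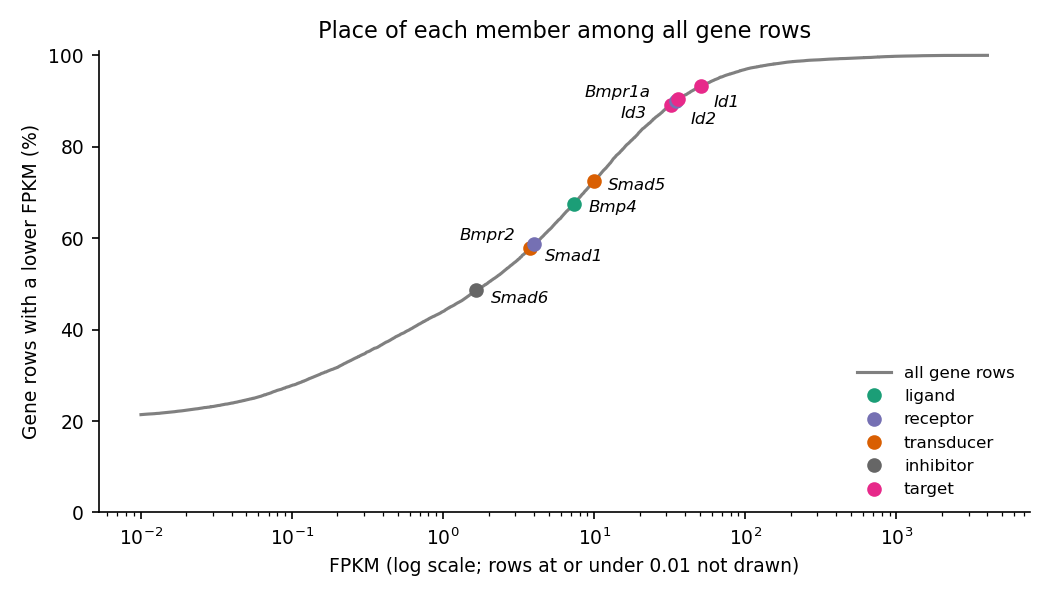
Share of gene rows with a lower FPKM (vertical axis, %) against FPKM (log axis) for all gene rows (line) and the 9 members (points, coloured by role). Id1, Id2, Bmpr1a and Id3 sit together near the upper bend, and Smad6 lies at 48.6%.

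The effective length used for FPKM moved every member beyond its bounds. It exceeded the model length in 7 of the 9, most in Smad6 (1.57-fold), and fell short of it in Bmpr1a (0.793) and Smad5 (0.922). All lie within the 5th to 95th percentile over all genes, 0.640 to 1.94. On the model length Id1 had 78.0 FPKM, Bmp4 11.1, Smad5 9.17, Smad1 5.62, Bmpr2 4.73 and Smad6 2.60. Bmp4 thus passed Smad5, and Id3 passed Id2 and Bmpr1a. Smad1 came above Bmpr2, the reverse of their order on the effective length, and their bounds overlap on both lengths. All 9 remained at 1 FPKM or more, against 58.2% of gene rows on that scale.

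Whether counting used strand is not given in the sources used here, so genes sharing exon bases with a member cannot be told apart from it. Bmpr1a shares 290 of 6351 annotated exon bases with the antisense gene Gm17110 and Bmp4 89 of 2248 with Gm15217 on the opposite strand. Smad5 shares 100 of 7420 with Gm27301, a small RNA on the same strand. The other 6 share none in GENCODE M21.

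In RefSeq promoters (GRCm38.p6, 250 bases before to 50 after the start), the palindrome GGCGCC, a sequence that BMP Smads are known to bind, was found in Bmpr1a, Bmpr2, Smad5 and Id2, 4 of 8 members with an entry. It was found in 18.7% of 13506 genes of the table with an entry. A match in any promoter of a gene was counted, and Smad5 has 3 promoters. The comparison was not matched for GC content or for the number of promoters, so it does not show enrichment in the members. Id1 has no entry, and Id3, Bmp4, Smad1 and Smad6 have no match in this window.

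The profile carries the markers of the labelled cell type. Of 8 embryonic stem cell markers, 7 had at least 1 FPKM, with Pou5f1 at 605 and Nanog at 187. The eighth, Dppa5a, had 21876 counts but 0.683 FPKM, on an effective length of 1415960 for a model of 639 bases. Markers of other cell types reached 1 FPKM in 2 of 8 fibroblast genes (summed level 130.9 FPKM, of which Tagln gave 125), 2 of 7 primitive endoderm genes (78.1, mostly Sparc), 2 of 6 mesoderm genes (19.0, mostly T), 3 of 6 neural genes (45.6) and 4 of 6 trophoblast genes (112.9, mostly the keratins Krt8 and Krt18). On the model length the neural sum was 79.5 and the trophoblast sum 276.7, and 3 fibroblast genes reached 1 FPKM. Lineage genes of the same lists lay on both sides of 1 FPKM. Above it were Tfap2c at 15.1 FPKM (trophoblast), Dab2 at 3.05 (primitive endoderm), Eomes at 2.68 (mesoderm) and Pax6 at 2.38 (neural). The trophoblast gene Cdx2, the neural genes Nes and Tubb3 and the fibroblast gene Thy1 also reached 1 FPKM. The fibroblast gene Postn, the mesoderm gene Mesp1 and the neural gene Neurog2 had 0 counts, and Sox17, Elf5 and Sox1 were under 1 FPKM. Col1a1 had 0.902 FPKM, and 1.87 on the model length. The part of other cells in the levels of the BMP genes was not tested. The transcripts of the precipitated proteins, Zfp36l1 at 42.7 FPKM and Zfp36l2 at 22.2, lay within and below the range of the Id genes.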

How the data were processed

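RNA from E14 mouse embryonic stem cells was sequenced as 6 libraries in 3 groups of 2, per the labels. The submitters' processing notes name CASAVA 1.8.2, Bowtie 1.1.2, eXpress 1.1.1 and mm9, with no role or settings. The authors deposited total and unique counts and estimated counts (also as effective counts), per the file headers, and these agree in every row apart from the effective ones. The FPKM and its bounds were deposited by the authors, per the file headers. FPKM was recomputed from counts with a largest gap of 1.9e-06, and the bounds lie 2.00 square roots of the count from the value. A row naming no gene holds the sum of 22625281 and was left out. Depth per library is unknown.

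No column names a library, so no count model and no group test was run. The members and lists were chosen with earlier results of these data known. Named genes were the members, the 2 highest of each pathway list, near paralogs, Zfp36l1 and Zfp36l2. Other names were added after values were seen. Lists were the ligands, receptors, Smads, Smad regulators, antagonists, BMP-responsive genes, E proteins and markers. Ratios carry exact Clopper-Pearson 95% intervals scaled by length. 3′ untranslated regions were exon bases past the stop codon in GENCODE M21 transcripts, of at least 50 bases, matched by symbol for 16276 of 18312 genes (88.9%). The motif search was tested on simulated data. Alternatives were the model length, 5 FPKM, a minimum of 10 counts, the lower bound, other motifs and other regions. Scripts ran in Python 3.11.15 with scipy 1.17.1 and pandas 2.3.3 (numpy 2.4.6), and matplotlib 3.10.9 drew the figures.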

Additional observations from a re-analysis of the deposited data

How the results depend on the processing

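No paired analysis was possible because no column names a replicate or group. No fit between groups, with or without a library left out, was run either. The count of 9 members at 1 FPKM or more was the same with the model length, a minimum of 10 counts and the lower bound, and was 6 at a threshold of 5 FPKM. Of 36 pairs of members, 32 kept their order with the model length and 31 by counts not divided by length. At 5 FPKM the list counts were 0 ligands, 1 receptor or co-receptor, 0 Smads outside the members, 1 BMP-responsive gene, 1 fibroblast, 1 primitive endoderm and 1 mesoderm marker. With the model length there were 2 ligands, 2 antagonists and 3 fibroblast markers at 1 FPKM or more. Members holding the motif were 2 of 9 for the nonamer TTATTTATT and 7 of 9 for ATTTA. The shares over all 16276 genes with an annotated region were 8.15% and 67.8%. With the shortest region in place of the longest, 3 of 9 held the heptamer, against 20.2% of those genes, and the regions of Bmp4 and Id2 held none. In the transcript nearest in length to the model, an alternative chosen after seeing the data, 4 of 7 members held the heptamer. Over all 12568 genes with such a transcript the share was 24.6%. These shares were not matched for region length, and no test was made on them. Fewer bases or a longer motif give fewer matches by construction. With 175 counts, Smad6 has the widest bounds relative to its level among the members.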
